A study of Caenorhabditis elegans with 10 samples.

Results

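Transcripts of 6 iron-handling genes were followed in Caenorhabditis elegans with a defect in mitochondrial complex I. They were the ferritins ftn-1 and ftn-2, the metal transporters smf-1, smf-2 and smf-3, and the cytosolic aconitase aco-1. They were picked by gene symbol, with earlier results of these data known, and are 6 of the 17138 genes that had a probe set of their own on the array. A probe set is a group of short probes read together as 1 value. There were 7 such sets that named 1 of these genes alone, 2 of them for ftn-2 and 1 for each of the others. A further 1, which names smf-3 together with its neighbour daao-1, was left out.

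Whole young adult worms of the strain gas-1(fc21) were set against the wild type N2 (Bristol), with 5 biological replicates of each on 1 Affymetrix array per replicate. Both groups were grown on OP50 bacteria and sorted by size, and neither carried a further mutation or treatment that the labels name. Complex I is the first enzyme of the respiratory chain and gas-1 codes for one of its central subunits. The labels describe fc21 as a missense mutation, and the mutant is 1 strain with 1 allele. The comparison was made to find metabolic pathways downstream of the mutation. In RNA from whole worms, fewer cells of a type and less RNA per cell cannot be told apart.

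Iron is needed for heme, for iron-sulfur clusters and so for the respiratory chain, but free iron is harmful. Cells therefore store it inside shells of ferritin, bring it in through divalent metal transporters of the NRAMP family, and adjust both to the supply. In C. elegans the hypoxia factor HIF-1 and intestinal GATA factors are known to act on the ftn-1 and smf-3 promoters, so that ferritin falls and uptake rises when iron is short. Cytosolic aconitase carries an iron-sulfur cluster, and in mammals its counterpart doubles as an iron-sensing RNA-binding protein.

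Values are log2 intensities as deposited, and the array medians lay between 6.22 and 6.61. Over the 22548 probe sets tested, 11.8% were called at a limma adjusted p under 0.05, 7.54% as higher in the mutant and 4.28% as lower. The split depended on the scaling of the arrays. There were 1701 higher and 964 lower as deposited, 1561 and 1315 after quantile normalization, and 1286 and 1089 after centring on array medians. Arrays did not all resemble their group. Mean correlations with the other arrays of the group were 0.969 and 0.973 for wild-type replicates 1 and 5 and 0.986 for wild-type replicates 2, 3 and 4. Mutant replicates 4 and 5 stood apart from mutant replicates 1 to 3 in their markers of hypodermis (9.0 on both against 7.87 to 7.89, as mean log2 of 5 genes). The same was seen for sperm markers (9.46 on both against 6.83 to 7.04). Of the 6 marker lists, sperm also had the largest median difference between the genotypes (−2.77 over 5 genes). In the wild type its mean was 8.20 for replicate 5 and 10.28 to 10.42 for the others. Of the 5 genes limma called 0 after adjustment. At an unadjusted p under 0.05, 4 were lower, as were 11.3% of all genes. The part of this sperm marker difference in the results below was not tested. Results are therefore also given without wild-type replicates 1 and 5 and mutant replicates 4 and 5. Markers fixed for intestine, body wall muscle, hypodermis, neurons, germ line and sperm had means above 5.25, the highest array median of the background controls, except the muscle gene hlh-1.

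Of the 6 genes, ftn-2 fell, smf-1 rose, and ftn-1, smf-2, smf-3 and aco-1 did not pass the test. The ferritin ftn-2 was 1.60-fold lower in the mutant, and the metal transporter smf-1 was 1.37-fold higher. The means of smf-3 and aco-1 were 1.43-fold and 1.46-fold higher without passing. Of the 7 probe sets, 2 were called lower, both of them for ftn-2, and 1 higher. Over all probe sets tested 4.28% were called lower and 7.54% higher.

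**Figure D1:**
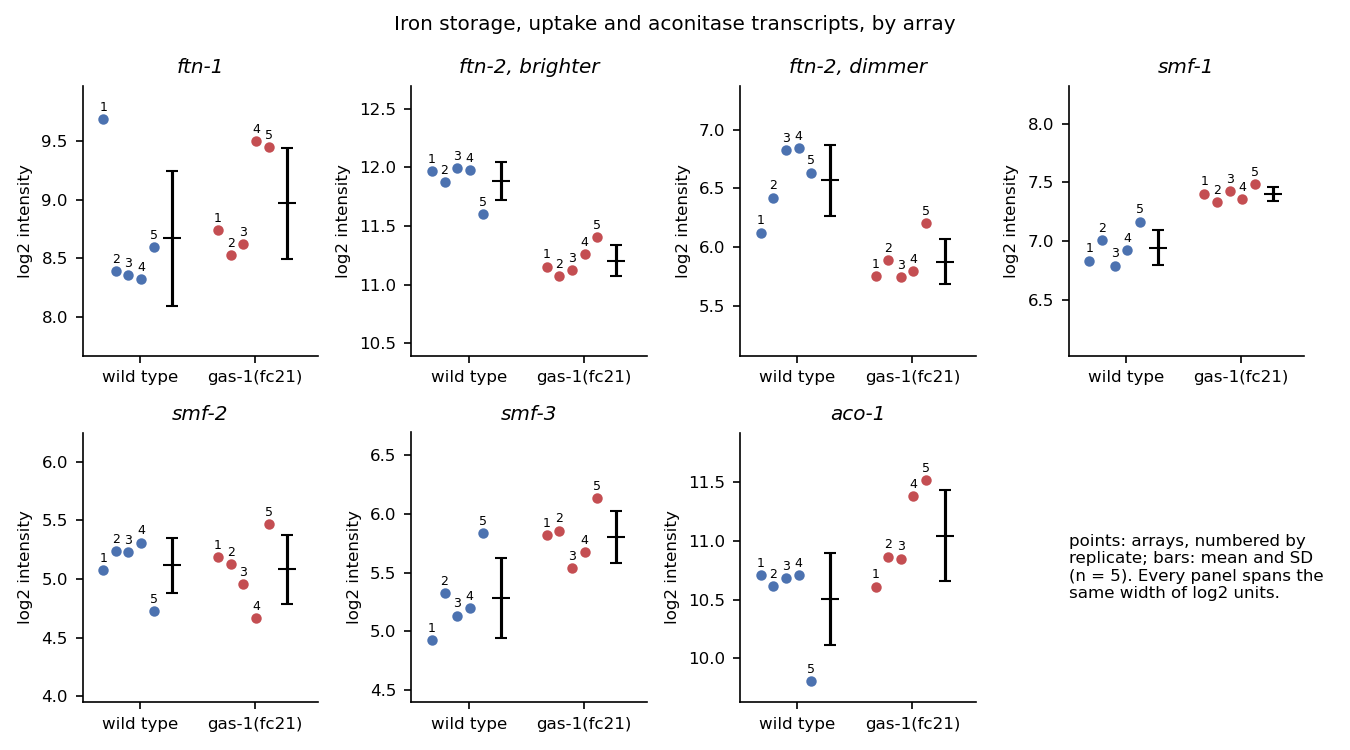
Log2 intensity of each probe set on each array, wild type in blue and gas-1(fc21) in red, with replicate numbers above the points and the mean and SD (n = 5) to the right of each group. The groups separate for the brighter ftn-2 probe set and for smf-1, while wild-type replicate 1 stands high for ftn-1 and wild-type replicate 5 low for aco-1.

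The gene ftn-2 encodes a ferritin heavy chain homologue that is expressed in many tissues of the worm and holds most of its stored iron. Its brighter probe set read 11.97, 11.88, 11.99, 11.98 and 11.60 on wild-type replicates 1 to 5. On mutant replicates 1 to 5 it read 11.15, 11.08, 11.13, 11.26 and 11.41. All 5 mutant arrays lay below all 5 wild-type arrays, and the nearest were wild-type replicate 5 and mutant replicate 5. The mutant mean was 11.21 ± 0.13 and the wild-type mean 11.88 ± 0.16 (SD, n = 5). The difference of −0.68 on the log2 scale (SE 0.10) had a limma adjusted p of 0.00146 and an exact permutation p of 0.00794, the smallest that splits of 10 arrays into 5 and 5 can give. Of all probe sets, 2.35% had a difference this low or lower.

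The second ftn-2 probe set was much dimmer and moved the same way. Its mean was above those of 24 of the 27 background controls in the mutant and of 26 in the wild type. The size of its fold is therefore uncertain. It read 6.12, 6.42, 6.83, 6.84 and 6.63 on wild-type replicates 1 to 5, and 5.75, 5.89, 5.74, 5.80 and 6.20 on mutant replicates 1 to 5. The groups overlapped only between mutant replicate 5 and wild-type replicate 1. The difference was −0.69 (SE 0.15, 1.62-fold lower, limma adjusted p = 0.0138, exact permutation p = 0.01587). The suffixes of both probe sets, and of those for ftn-1 and smf-1, mark probes shared with other transcripts, so a part from another transcript cannot be told apart.

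The fall of ftn-2 was as large without the 4 arrays that stood apart. The difference was then −0.83 (limma adjusted p = 0.00017) on the brighter probe set and −0.90 (adjusted p = 0.00226) on the dimmer one. Ferritin of the worm is prominent in the intestine, and the mean of 9 intestine markers was 9.77 to 9.89 on mutant replicates 1 to 3 and 10.21 on wild-type replicates 2 to 4. Of these 9 markers limma called 0 higher and 1 lower (2 and 2 at an unadjusted p under 0.05, where 14.4% of all genes were higher and 11.3% lower), and their median difference was −0.06. On the same arrays the sperm markers lay at 6.83 to 7.04 in the mutant and 10.28 to 10.42 in the wild type. The part of these tissues in the ftn-2 result was not tested.

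The other ferritin, ftn-1, is mainly intestinal and is the one whose transcript is known to respond most to iron. It read 9.68, 8.39, 8.35, 8.32 and 8.60 on wild-type replicates 1 to 5. On mutant replicates 1 to 5 it read 8.74, 8.52, 8.62, 9.50 and 9.45. Wild-type replicate 1 and mutant replicates 4 and 5 were high, and the other 7 arrays were between 8.32 and 8.74. The means of 8.97 ± 0.47 and 8.67 ± 0.58 (SD, n = 5) differed by 0.30 (SE 0.30, 95% interval −0.36 to 0.96, limma adjusted p = 0.605, exact permutation p = 0.3254). This difference was smaller than the spread between replicates, and its interval runs from 0.779-fold to 1.94-fold.

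The size and direction for ftn-1 depended on those high arrays. Without wild-type replicate 1 the difference was 0.55 (limma adjusted p = 0.137), and without mutant replicates 4 and 5 it was −0.04 (adjusted p = 0.963). Without all 4 arrays that stood apart it was 0.27 and passed the test (adjusted p = 0.0454), with mutant replicates 1 to 3 above wild-type replicates 2 to 4. That fit called 21.5% of all probe sets, against 11.8% with all arrays, so passing it is not particular to ftn-1. On wild-type replicate 1 the intestine markers averaged 10.24, close to the 10.21 of wild-type replicates 2 to 4, and the brighter ftn-2 probe set was within their range. The dimmer ftn-2 probe set (6.12) lay below theirs. On mutant replicates 4 and 5 the intestine markers averaged 10.31 and 10.39.

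The ferritins were also set against each other within each array. The log2 value of ftn-1 minus that of ftn-2 was −2.55 to −1.76 on mutant arrays and −3.66 to −2.28 on wild-type arrays. The mutant shift was 0.98 (SE 0.31) towards ftn-1, with an exact permutation p of 0.03175 and 0.0794 after Benjamini-Hochberg adjustment over 5 gene pairs. It did not pass over all arrays. Without wild-type replicate 1 it was 1.21 (adjusted p = 0.0397), with the groups apart, and without wild-type replicates 1 and 5 it was 1.36 (adjusted p = 0.0298). In the other 13 of 15 alternatives it did not pass. The highest wild-type value, −2.28, was that of wild-type replicate 1, the array with the high ftn-1 value.

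The smf genes encode NRAMP-type transporters, the worm's counterparts of the mammalian transporter DMT1, which carry iron and manganese into cells. The genes smf-1 and smf-2 lie next to each other in the RefSeq annotation, and smf-3 is elsewhere. In worms smf-3 is the member known best for intestinal iron uptake, and smf-1 is expressed in the intestine and in other tissues.

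The smf-1 probe set read 6.83, 7.01, 6.79, 6.92 and 7.16 on wild-type replicates 1 to 5. It read 7.40, 7.33, 7.42, 7.35 and 7.48 on mutant replicates 1 to 5. The lowest mutant array lay above the highest wild-type array, and the mutant arrays were close together. The difference was 0.46 (SE 0.08) between means of 7.40 ± 0.06 and 6.94 ± 0.15 (SD, n = 5), with a limma adjusted p of 0.00514 and an exact permutation p of 0.00794. It passed without the 4 arrays that stood apart (0.48, adjusted p = 0.00518). It did not pass after quantile normalization (0.39, adjusted p = 0.0868) or centring on array medians (0.41, adjusted p = 0.0749).

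The smf-3 probe set read 4.93, 5.32, 5.13, 5.20 and 5.84 on wild-type replicates 1 to 5. It read 5.82, 5.86, 5.54, 5.67 and 6.13 on mutant replicates 1 to 5. Wild-type replicate 5 lay among the mutant arrays and the other 4 wild-type arrays lay below them all. The difference was 0.52 (SE 0.17, 95% interval 0.15 to 0.89), with a limma adjusted p of 0.0746 and an exact permutation p of 0.03175. Without wild-type replicate 5 it was 0.66 and passed (adjusted p = 0.00746), as it did without the 4 arrays that stood apart (0.52, adjusted p = 0.0127). Those fits called 15.4% and 21.5% of all probe sets, against 11.8% with all arrays.

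The level of smf-3 was close to background. Probe sets for 27 Bacillus control RNAs served as a guide, with array medians of 4.39 to 4.75 and of 5.25 on wild-type replicate 1. The smf-3 mean was above the means of 23 of the 27 in the mutant and of 17 in the wild type. The size of its fold is therefore uncertain.

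The smf-2 probe set read 5.07, 5.24, 5.23, 5.31 and 4.72 on wild-type replicates 1 to 5, and 5.19, 5.13, 4.96, 4.66 and 5.47 on mutant replicates 1 to 5. The whole wild-type range lay inside the mutant range. The difference was −0.03 (SE 0.16, 95% interval −0.38 to 0.32, limma adjusted p = 0.927, exact permutation p = 0.8492), which covers changes from 0.766-fold to 1.24-fold. In both groups its mean was above those of only 16 of the 27 controls, so a change in this gene was not detectable here.

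Between the smf genes the shifts were compared within arrays. The difference of smf-1 minus that of smf-3 was −0.06 (SE 0.13, exact permutation p = 0.6587). That of smf-1 minus smf-2 was 0.49 (SE 0.20, exact p = 0.03175), and that of smf-2 minus smf-3 was −0.56 (SE 0.25, exact p = 0.04762). The last pair of values each came to 0.0794 after adjustment over the 5 gene pairs. Both passed without wild-type replicate 5 (0.0397) and without wild-type replicates 1 and 5 (0.0298), and neither passed in the other 13 of 15 alternatives. Since smf-2 was near background, a shift measured against it does not show that the smf genes differed.

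The aconitase aco-1 belongs to the enzymes that turn citrate into isocitrate, here in the cytosol, while aco-2 does so in mitochondria. The aco-1 probe set read 10.71, 10.61, 10.68, 10.71 and 9.81 on wild-type replicates 1 to 5. It read 10.61, 10.87, 10.85, 11.38 and 11.52 on mutant replicates 1 to 5. Mutant replicates 4 and 5 were high, wild-type replicate 5 was low, and mutant replicate 1 lay within the wild-type range. The difference was 0.54 (SE 0.22, 95% interval 0.05 to 1.03, limma adjusted p = 0.153, exact permutation p = 0.03968).

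Much of that difference came from arrays that stood apart. Without the 4 of them it was 0.11 (limma adjusted p = 0.451), and without mutant replicates 4 and 5 alone it was 0.27 (adjusted p = 0.552). On wild-type replicate 5 the body wall muscle markers (8.70 against 9.33 to 9.41 on the other wild-type arrays) and the intestine markers (9.92 against 10.21 to 10.24) were also low. Sperm markers (8.20 against 10.28 to 10.42) and neuronal markers (7.46 against 7.85 to 8.06) were low on it too. Germ line and oocyte markers were high on it (11.63 against 11.47 to 11.49). Hypodermis markers (7.86) lay within the range of the other wild-type arrays (7.79 to 8.08). Its array median of 6.22 was the lowest of all arrays. The part of these tissues and of the array median in the aco-1 values was not tested. The mitochondrial gene aco-2 rose by 0.77 (SE 0.10, limma adjusted p = 0.000856). Within arrays the shift of aco-1 was 0.23 below that of aco-2 (SE 0.16), and the exact permutation p of 0.2143 (0.2679 adjusted over the 5 pairs) does not show that the 2 differed.

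**Figure D2:**
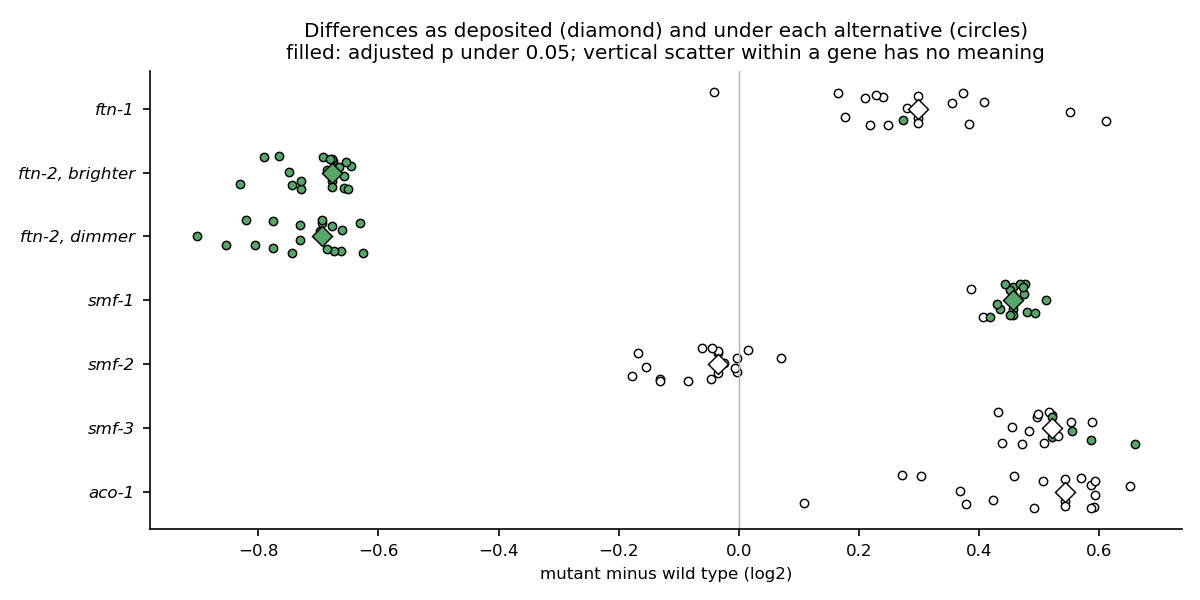
Mutant minus wild-type difference (log2) of each probe set with all arrays as deposited (diamonds) and under each other processing choice or left-out array (circles), filled where the adjusted p was under 0.05. Both ftn-2 probe sets stay between −0.90 and −0.63 and filled throughout, while ftn-1 runs from −0.04 to 0.61.

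The settings sorted the genes into those that held and those that did not. The brighter ftn-2 probe set was called in 21 of 21 alternatives (−0.83 to −0.65) and the dimmer one in 20 of 20 (−0.90 to −0.63). For smf-1 it was 18 of 20 (0.39 to 0.51), and for smf-3 it was 5 of 18 (0.43 to 0.66). In ftn-1 the call was made in 1 of 20, while aco-1 (20 alternatives, 0.11 to 0.65) and smf-2 (18, −0.18 to 0.07) were called in 0 at adjusted p. At an unadjusted limma p under 0.05 with all arrays, aco-1 was past the threshold and smf-2 was not.

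**Figure D3:**
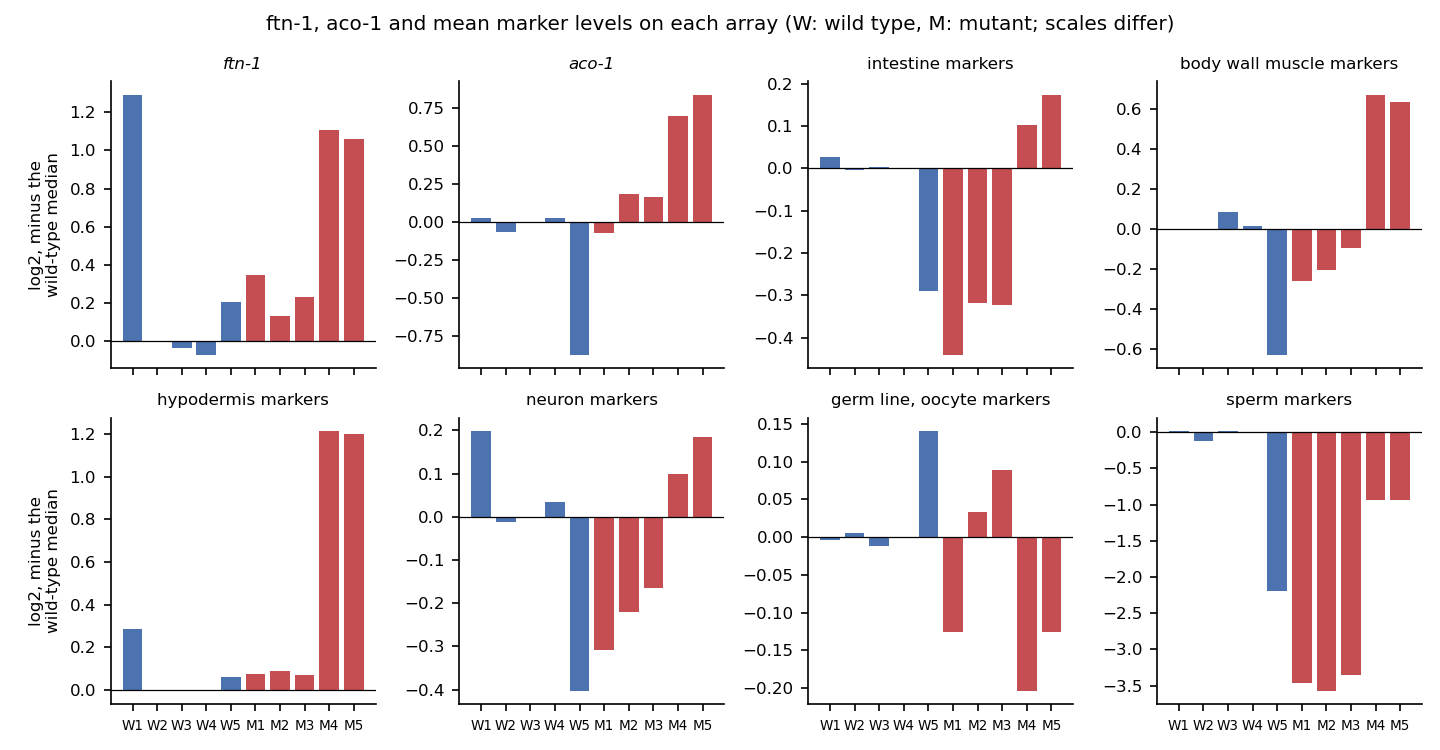
Values of ftn-1 and aco-1 and mean levels of 6 marker lists on each array, as log2 differences from the wild-type median (W, wild type in blue; M, mutant in red; each panel has its own scale). Wild-type replicate 1 is high for ftn-1 with intestine markers at the wild-type median, and mutant replicates 4 and 5 are high for ftn-1, aco-1, muscle and hypodermis markers.

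Genes with the most similar profile over the 10 arrays were named for each member, as a description that the genotype and the arrays that stood apart both shape. For ftn-1 they were the homeobox gene ceh-34 (Pearson r = 0.987), aakb-1, a beta subunit of the energy sensor AMPK (0.983), and C54D10.10 (0.962). All 3 shared the high values on wild-type replicate 1 and mutant replicates 4 and 5, and their correlations were 0.962 to 0.989 once each group's mean was taken away. For ftn-2 they were dgat-2 (0.991), an acyltransferase of fat storage, W02B12.1 (0.990) and the lectin clec-47 (0.988). Without the group means these correlations were 0.923 to 0.944. The closest to smf-1 were the thioredoxin reductase trxr-1 (0.984), the mitochondrially encoded ATP6 (0.980) and F47D12.9 (0.979). Their correlations without the group means were 0.886 to 0.903.

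For smf-3 the closest were F56C11.3 (0.970), B0507.2 (0.964) and siah-1 (0.962), a ubiquitin ligase, at 0.922 to 0.939 without the group means. The closest to aco-1 were C18B2.3 (0.994), F44B9.2 (0.994) and the histidine ammonia-lyase haly-1 (0.993), at 0.989 to 0.991 without the group means. The closest to smf-2 had lower correlations of 0.908 to 0.916 (srg-34, ndnf-1 and osm-1), and 0.917 to 0.931 without the group means.

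Other genes of iron handling were then counted in 5 lists written from general knowledge. Among the list genes given with values, the probe sets of sfxn-1.5, mdl-1, hrg-1, cox-15, aco-2, sdhb-1 and lias-1 also carry a suffix for shared probes. A part from another transcript cannot be told apart in these either. Over all genes with 1 probe set each, 7.54% were called higher and 4.46% lower, and the median difference was 0.00. Among 11 genes of iron export and mitochondrial import, 2 rose and 2 fell, with a median of 0.07. The ferroportin homologue fpn-1.1, an iron exporter, fell from 7.61 ± 0.17 to 6.88 ± 0.41 (SD, n = 5; −0.74, SE 0.18, limma adjusted p = 0.0261). Its relatives fpn-1.2 (0.07, SE 0.18, adjusted p = 0.873) and fpn-1.3 (−0.15, SE 0.14, adjusted p = 0.566) did not pass. The call of fpn-1.1 ended without mutant replicate 5 or wild-type replicate 2, 3 or 4 (adjusted p = 0.0626 to 0.0685), and the difference without mutant replicates 4 and 5 was −0.47 (adjusted p = 0.06).

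The mitoferrin slc-25A37, which brings iron into mitochondria, rose from 9.62 ± 0.15 to 10.01 ± 0.21 (SD, n = 5; 0.39, SE 0.11, limma adjusted p = 0.0472). It rested on most of the arrays: the call was lost without any 1 of mutant replicates 1, 2, 4 and 5 or wild-type replicates 1 to 4 (adjusted p = 0.0557 to 0.106). Centring ended it too (adjusted p = 0.138). Without the 4 arrays that stood apart the difference was 0.21 (adjusted p = 0.0968). Among the sideroflexins, carriers of the inner mitochondrial membrane, sfxn-1.5 rose (0.56, SE 0.12, adjusted p = 0.0145) and sfxn-1.1 fell (−0.43, SE 0.10, adjusted p = 0.0182). The call of sfxn-1.1 ended without wild-type replicate 2, 3 or 4 (adjusted p = 0.0504 to 0.0541), and without mutant replicates 4 and 5 both calls ended (0.0797 for sfxn-1.1 and 0.0615 for sfxn-1.5).

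Of 16 measured regulators of iron genes 4 rose and 0 fell by limma (6 and 2 at an unadjusted p under 0.05), with a median difference of 0.15. The unadjusted counts are read beside 14.4% and 11.3% of all genes. The 2 that were lower at an unadjusted p were mdl-1 (−0.44, SE 0.19, limma adjusted p = 0.182) and vhl-1 (−0.25, SE 0.09, adjusted p = 0.105). The latter is part of the ligase that marks HIF-1 for destruction. The probe sets of hif-1 and egl-9 carry 2 gene identifiers each and were not used. The regulators that rose were mml-1 (0.88, SE 0.18), a glucose-responsive factor, pqm-1 (0.71, SE 0.19), a zinc finger factor, rhy-1 (0.64, SE 0.10), which holds HIF-1 activity down, and skn-1 (0.34, SE 0.06), the worm's NRF factor. Their limma adjusted p-values were 0.0091, 0.033, 0.0018 and 0.00685. The call of pqm-1 ended without any 1 of mutant replicates 1, 4 and 5 or wild-type replicates 1 to 4 (adjusted p = 0.0564 to 0.075), and that of skn-1 after centring (0.29, adjusted p = 0.154). The intestinal GATA factor elt-2 differed by 0.09 (SE 0.23, adjusted p = 0.856).

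Iron-sulfur clusters are built in mitochondria on a scaffold and passed on to enzymes there and in the cytosol. Of 14 measured assembly genes 1 rose and 0 fell by limma (3 and 2 at an unadjusted p under 0.05, against the same 14.4% and 11.3%), with a median difference of 0.07. The one that rose was ciao-2B, of the machinery that targets clusters to cytosolic proteins (0.45, SE 0.08, limma adjusted p = 0.00348). The frataxin gene frh-1, which feeds iron to the scaffold, differed by 0.09 (SE 0.07, adjusted p = 0.512). Another gene of the cytosolic machinery, nubp-1, had a difference of −0.23 (SE 0.07, adjusted p = 0.0694).

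C. elegans makes no heme and takes it from its food. Of 10 measured genes of heme transport and use 4 rose and 0 fell by limma (5 and 0 at an unadjusted p under 0.05), 9 had a positive difference, and the median was 0.44. Over all genes 7.54% were called higher and 4.46% lower, with 14.4% and 11.3% at an unadjusted p under 0.05. A positive difference was found for 8572 of the 17138 genes. The heme transporter hrg-1 rose from 8.88 ± 0.04 to 10.44 ± 0.38 (SD, n = 5; 1.56, SE 0.16, limma adjusted p = 0.000154). It was called in every alternative. The secreted heme signal hrg-7 (0.79, SE 0.18, adjusted p = 0.0181), the intestinal heme exporter mrp-5 (0.53, SE 0.14, adjusted p = 0.0372) and cox-15, which makes heme a for complex IV (0.33, SE 0.08, adjusted p = 0.0196), also rose. The call of mrp-5 ended without any 1 of mutant replicates 2 to 5 or wild-type replicates 2 to 4 (adjusted p = 0.05 to 0.0856). The mrp-5 call also ended without the 4 arrays that stood apart, without mutant replicates 4 and 5, and without wild-type replicates 1 and 5. That of cox-15 ended after centring (adjusted p = 0.105), without wild-type replicate 3 (0.0541), without mutant replicates 4 and 5 (0.0579) and without wild-type replicates 1 and 5 (0.0529). Without mutant replicates 4 and 5, hrg-7 was at 0.64 (adjusted p = 0.105).

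Of 16 measured enzymes that carry iron or an iron-sulfur cluster, 4 rose and 2 fell by limma (7 and 2 at an unadjusted p under 0.05). A positive difference was found for 14 of them, against 8572 of all 17138 genes, and the median difference was 0.29. Over all genes 7.54% were called higher and 4.46% lower, with 14.4% and 11.3% at an unadjusted p under 0.05. Beside aco-2, the lipoyl synthase lias-1 (1.23, SE 0.08, limma adjusted p = 6.09e-06), the ubiquinone enzyme clk-1 (0.59, SE 0.07, adjusted p = 0.000598) and sdhb-1 of complex II (0.40, SE 0.08, adjusted p = 0.00932) rose. The 2 that fell were the fatty acid desaturases fat-7 (−3.91, SE 0.22, adjusted p = 2.47e-06) and fat-5 (−1.18, SE 0.24, adjusted p = 0.00953). The call of sdhb-1 ended after centring (adjusted p = 0.0515) and that of fat-5 without mutant replicates 4 and 5 (adjusted p = 0.058). These counts are read beside the share over all genes and were not tested as lists.

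**Figure D4:**
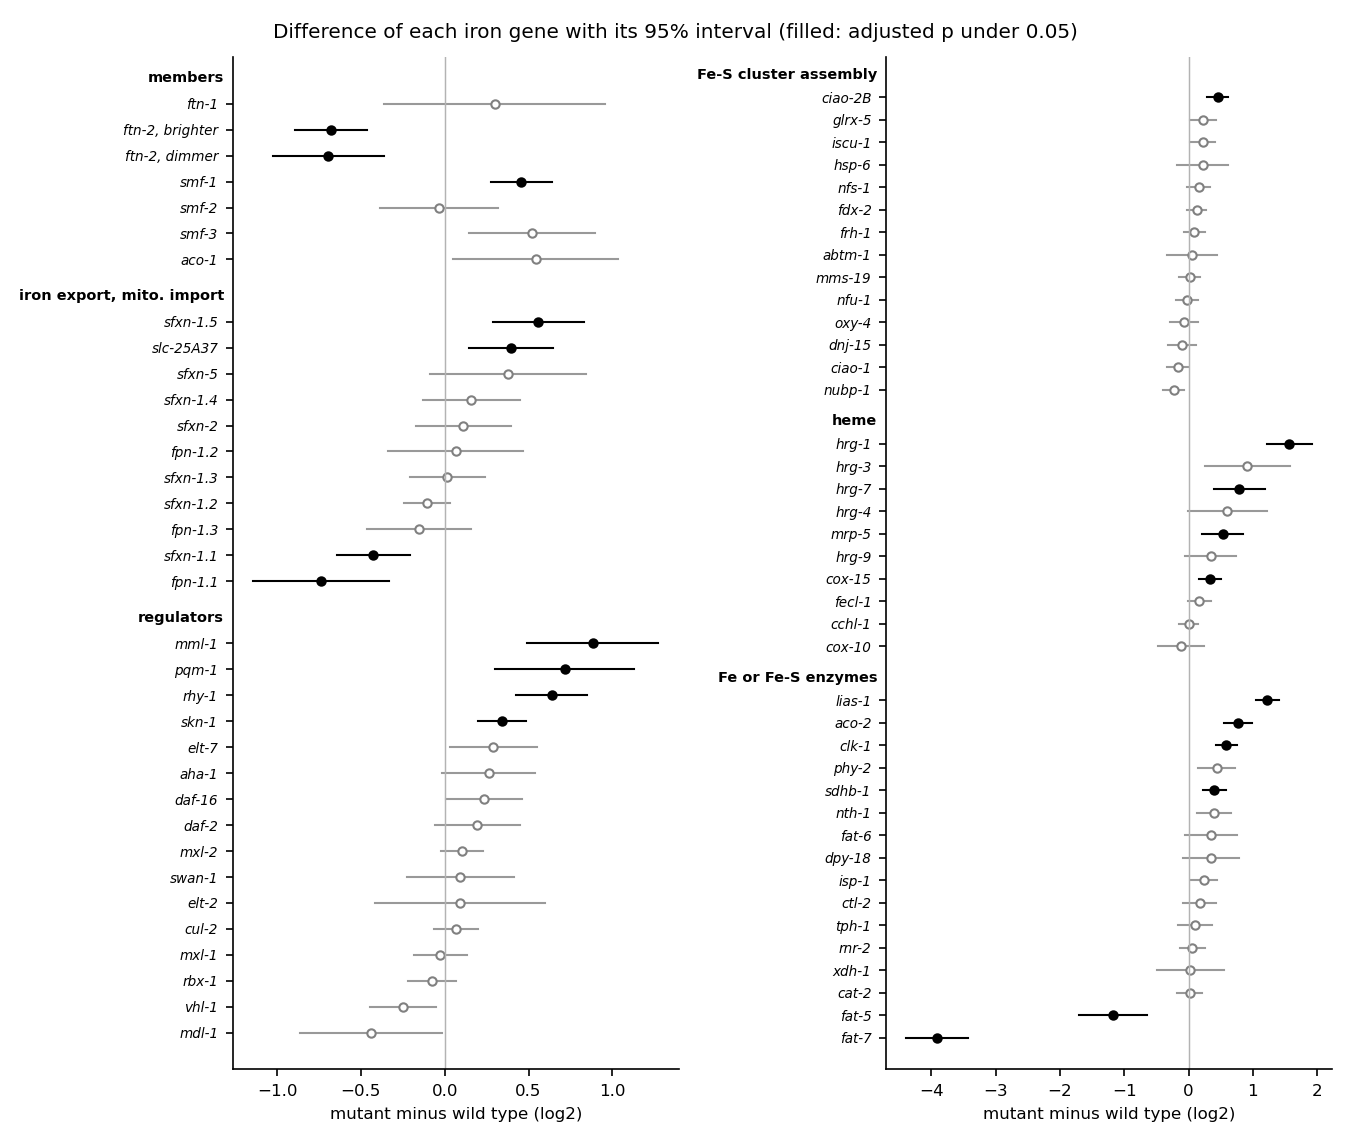
Mutant minus wild-type difference (log2) with its 95% interval from limma for the 7 probe sets and for every measured gene of the 5 wider lists, filled where the adjusted p was under 0.05 (the right panel has a wider scale). Called genes went both ways. Among them ftn-2, fpn-1.1 and sfxn-1.1 fell and smf-1, slc-25A37, sfxn-1.5 and hrg-1 rose, while ftn-1, fpn-1.2 and fpn-1.3 were not called. The calls of smf-1, fpn-1.1, slc-25A37, sfxn-1.1 and sfxn-1.5 ended under some alternatives.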

How the data were processed

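The authors deposited 1 table of log2 values for 22625 probe sets on 10 arrays. The scale was inferred from the range (at most 14.2). Not given in the sources used here is how the authors summarised probes, corrected background and normalized arrays. Array medians differed by 0.386, under the limit of 0.5 set for renormalizing, and nothing was rescaled or filtered. The 77 control probe sets were not tested, and 27 of them served as a guide to background. Names came from the platform annotation, updated through RefSeq (WBcel235), and 20766 of the tested probe sets named 1 gene. Coordinates are left out because no source names the build of the array design.

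Differences were tested with limma 3.58.1 (R 4.3.3; lmFit and eBayes, 2-sided) with genotype as the term, adjusted by Benjamini-Hochberg over 22548 probe sets and called under 0.05. Exact permutation tests were 2-sided over all splits of the arrays into 5 and 5. The fit was tested on simulated data, and at least 99.7% of values differed between any 2 arrays. A gene of a list was read on its brightest probe set. Named were all members, the called genes of the lists, 7 list genes fixed by name (hif-1 and egl-9 had no set of their own) and the 3 genes most correlated with each member. The values of vhl-1, mdl-1, nubp-1 and fpn-1.3 were added after they were seen. Members and lists were chosen with earlier results of these data known. The number of arrays limits precision.

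Alternatives were quantile normalization, centring, a filter on dim probe sets (the lowest 33% or 50% by mean), a robust variance trend, weighted arrays, a block for the replicate number, the mean of a gene's probe sets, and fits with 1, 2 or 4 arrays left out. The promoter motif search that had been planned was not made.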

Additional observations from a re-analysis of the deposited data

Results flagged for a closer look

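In 7 cases 1 array stood far from the other 4 of its group, by a gap of more than 0.71 of the group's range, among the 58 groups of 5 examined. Chance flags about 1 group in 20. One was ftn-1 on wild-type replicate 1 (9.684, against 8.32 to 8.597 on the others). The other 6 were low values on wild-type replicate 5: aco-1 (9.807, others 10.612 to 10.706), fat-7 (10.311, others 11.328 to 11.416), fpn-1.2 (6.705, others 7.525 to 7.829), hrg-7 (10.191, others 11.027 to 11.082), mrp-5 (9.174, others 9.647 to 9.735) and sfxn-1.1 (5.84, others 6.232 to 6.357). Over all tested probe sets, wild-type replicate 1 was set apart as the high array on 6.51% and wild-type replicate 5 as the low array on 7.3%. For wild-type replicates 2, 3 and 4 these shares were 0.0798% to 0.195%.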

How the results depend on the processing

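The number of arrays limits precision, and levels near the background controls limit what the smf-2, smf-3 and dimmer ftn-2 probe sets show. The filters on dim probe sets removed smf-2 and smf-3, so they gave no value there, and the stricter one removed the dimmer ftn-2 probe set. The cause of each change below was not tested. Both ftn-2 probe sets kept direction and call under every alternative that gave them a value. Quantile normalization and centring ended the smf-1 call (0.39 and 0.41). The test was passed by smf-3 with array weights (0.55), without the 4 arrays that stood apart (0.52) and without wild-type replicates 1 and 5 (0.59). In that order, these settings called 24.4%, 21.5% and 14.9% of all probe sets, against 11.8% in the main fit.

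The labels number the replicates without naming a pairing. Deviations of same-numbered arrays from their group means correlated at −0.175 to 0.098. These correlations cannot decide whether such arrays were handled together, since arrays that stood apart in only 1 of the groups also shape them. With the replicate block 1069 probe sets were called higher and 370 lower, smf-3 passed (0.52, adjusted p = 0.0407), and no other member changed its call. The block left 1 gene higher and 1 lower in the export and import list, 2 higher among regulators and 1 higher in the heme list. It ended the calls of slc-25A37, sfxn-1.1, pqm-1, skn-1, hrg-7, mrp-5 and cox-15 (adjusted p = 0.0511 to 0.119). The blocked differences of the gene pairs equal the unblocked ones, and their exact sign-flip test cannot go below 0.0625.

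Array weights gave 2969 probe sets higher and 2535 lower. Lower counts were 2522 without the 4 arrays that stood apart and 1529 without wild-type replicates 1 and 5, against 964. Without those 4 arrays ftn-1 passed at 0.27, and its sign turned to −0.041 without mutant replicates 4 and 5. Without wild-type replicates 1 and 5 the pairs ftn-1 minus ftn-2 (1.36), smf-1 minus smf-2 (0.67) and smf-2 minus smf-3 (−0.76) passed, and both smf pairs are measured against smf-2, which was near background.

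The export and import list had 1 gene higher under centring and without the 4 arrays or wild-type replicates 1 and 5, 0 higher and 0 lower without mutant replicates 4 and 5, and 1 lower without the dimmest 50%. At an unadjusted p under 0.05 in limma that list had 2 and 2 with all arrays. Regulators called lower were 1 under quantile normalization, array weights and without mutant replicates 4 and 5, and 2 without the 4 arrays. Assembly genes called lower were 1 under quantile normalization, both dimness filters, the intensity trend, without the 4 arrays and without wild-type replicates 1 and 5, and 2 with array weights. Heme genes called higher were 1 without mutant replicates 4 and 5 and 2 without wild-type replicates 1 and 5. Iron enzymes called higher were 7 under the intensity trend, and 1 was called lower without mutant replicates 4 and 5. Uncalled means changed sign for fpn-1.2 (−0.034 quantile, −0.060 weights, −0.05 without the 4 arrays, −0.047 without wild-type replicates 1 and 5) and elt-2 (−0.064 weights, −0.285 without the 4 arrays, −0.23 without mutant replicates 4 and 5).

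Leaving out 1 array at a time gave 1176 to 1868 probe sets higher and 479 to 1609 lower, the latter 479 to 493 without wild-type replicate 2, 3 or 4 and 1609 without wild-type replicate 5. It gave 1 to 2 genes higher and 0 to 2 lower in the export and import list, 0 to 1 lower in the assembly list and 2 to 4 higher in the heme list, the 2 without wild-type replicate 3. Differences ran from −0.13 to 0.07 for smf-2, 0.43 to 0.66 for smf-3, −0.12 to 0.16 for fpn-1.2 and −0.041 to 0.22 for elt-2. The pairs ran from 0.86 to 1.21 (ftn-1 minus ftn-2), 0.40 to 0.64 (smf-1 minus smf-2) and −0.79 to −0.48 (smf-2 minus smf-3).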
